A study of Mus musculus with 27 samples.

Results

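The genes described here were 10 cell cycle regulators of the TGF-β growth arrest programme in NMuMG cells. They were the CDK inhibitors Cdkn1a, Cdkn1b, Cdkn1c, Cdkn2a, Cdkn2b, Cdkn2c and Cdkn2d, together with Myc, Ccnd1 and Rb1. They were taken by gene symbol, and all 10 were found among the 23295 gene rows of the parental RNA-seq table and among the 24247 gene rows of the shRNA table. Of these, 9 reached at least 1 FPKM (fragment counts scaled by transcript length and library size) in at least 2 libraries of each table and were tested, and Cdkn1c did not. The study followed the epithelial to mesenchymal transition, in which cells lose their epithelial junctions and take on a mesenchymal form, and asked how lamin B1, a protein of the nuclear lamina, bears on it.

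NMuMG is an established line of mouse mammary gland epithelial cells, grown here in serum with insulin. The parental cells were left untreated or given TGF-β at 1 to 5 ng/ml for 8 h or 24 h, with 2 RNA-seq libraries at each time. A separate set of cells carried a lentivirus with either a control shRNA or an shRNA against lamin B1, was selected with puromycin, and received the same treatment, again with 2 libraries for each shRNA and time. The shRNA cells were thus infected and drug selected in both arms, whereas the parental cells were neither. The labels give untreated cells at 0 h only, with no untreated group at 8 h or 24 h. Effects of TGF-β and of time in culture therefore cannot be told apart in any comparison of treated with untreated cells. Lamin B1 ChIP-seq, which maps chromatin bound by lamin B1, and ATAC-seq, which maps open chromatin, were made from parental cells. Each had 1 library at each time, so that no test was possible on peaks. By the paper, the ChIP-seq used a fraction enriched in euchromatin, the open part of chromatin, after mild sonication. Large fragments, in which heterochromatin remains, were left out of the sequencing. The Hi-C libraries were not analysed here.

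TGF-β halts the cell cycle of epithelial cells in G1. In the textbook account, SMAD proteins raise the CDK inhibitors p15 (Cdkn2b) and p21 (Cdkn1a) and lower Myc, which otherwise holds these inhibitor genes back. The INK4 proteins (p16 from Cdkn2a, p15 from Cdkn2b, p18 from Cdkn2c and p19 from Cdkn2d) block CDK4 and CDK6, the partners of cyclin D1 (Ccnd1). The CIP/KIP proteins (p21, p27 from Cdkn1b and p57 from Cdkn1c) bind cyclin and CDK complexes more broadly. Active CDK complexes phosphorylate the retinoblastoma protein (Rb1), which then releases E2F factors to switch on genes for DNA synthesis.

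The shRNA lowered its target. Lmnb1 stood at 29.2 and 36.5 FPKM in the untreated control shRNA libraries and at 9.01 and 9.27 FPKM in the untreated knockdown libraries. The knockdown left 27.8% of the control level before TGF-β, 24.5% after 8 h and 32.8% after 24 h. The control level itself fell to 18.4 and 17.9 FPKM after 24 h of TGF-β (log2 difference -0.82, limma adjusted p = 0.00317). The 24 h knockdown libraries were uneven, at 4.37 and 7.52 FPKM. The epithelial label was checked on its markers. The keratins Krt8 (2024 to 2599 FPKM in parental libraries and 2487 to 3938 FPKM in shRNA libraries) and Krt18 (1720 to 2108 and 1894 to 3324 FPKM) were abundant. Epcam reached no more than 1.17 FPKM in parental and 3.15 FPKM in shRNA libraries. Cdh1 (39.4 to 119 and 26.8 to 127 FPKM) and Cldn4 (0.0923 to 9.19 and 0 to 9.78 FPKM) varied widely between libraries. The leukocyte markers summed to 1.54 and 1.59 FPKM in untreated parental libraries and to 2.78 and 2.80 FPKM after 24 h, and the part of other cells in the results below was not tested. In bulk RNA, fewer cells of a type and less RNA per cell cannot be told apart. The 2 tables were normalised separately, so each test below stayed within 1 table, and the tables give no read totals.

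The start regions of 4 inhibitor genes are shown because lamin B1 and ATAC peaks were listed there at some times and not at others, or, for Cdkn1b, at nearly all. Each line gives bases upstream of a RefSeq transcript start, 5′ to 3′ on the gene's strand, located by exact match in mm9. Capitals mark 3 short motifs, sought on both strands: the Smad element CAGAC (or GTCTG), the GC box GGGCGG (or CCGCCC) and the E2F core GCGGGAA (or TTCCCGC).
Cdkn2b, chr4:88956942-88957191, minus strand: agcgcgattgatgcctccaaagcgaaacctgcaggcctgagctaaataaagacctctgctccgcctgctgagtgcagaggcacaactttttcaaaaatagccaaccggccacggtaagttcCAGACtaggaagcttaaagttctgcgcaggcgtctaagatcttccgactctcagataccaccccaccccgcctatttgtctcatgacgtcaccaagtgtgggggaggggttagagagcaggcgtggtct
Cdkn2a, start of the longer transcripts, chr4:88940558-88940773, minus strand: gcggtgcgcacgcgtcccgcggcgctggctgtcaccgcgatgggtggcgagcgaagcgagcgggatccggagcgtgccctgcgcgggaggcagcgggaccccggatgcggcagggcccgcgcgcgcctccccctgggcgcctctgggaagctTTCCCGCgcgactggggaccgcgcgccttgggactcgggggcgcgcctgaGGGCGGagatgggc
Cdkn1a, second start, chr17:29230464-29230713, plus strand: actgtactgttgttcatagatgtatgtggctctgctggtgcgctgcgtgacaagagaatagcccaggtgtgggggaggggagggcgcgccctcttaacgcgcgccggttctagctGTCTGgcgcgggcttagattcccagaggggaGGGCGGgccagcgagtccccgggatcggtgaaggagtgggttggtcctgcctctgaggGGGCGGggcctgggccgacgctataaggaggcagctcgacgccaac
Cdkn1b, chr6:134870169-134870418, plus strand: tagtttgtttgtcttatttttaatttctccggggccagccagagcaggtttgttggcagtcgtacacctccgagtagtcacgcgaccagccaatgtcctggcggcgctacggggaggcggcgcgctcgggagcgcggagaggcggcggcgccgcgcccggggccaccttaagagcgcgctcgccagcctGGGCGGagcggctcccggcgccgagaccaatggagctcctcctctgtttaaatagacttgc
The Cdkn2b stretch held 1 Smad element and no GC box, the Cdkn1a stretch held 1 Smad element and 2 GC boxes, and the Cdkn1b stretch held 1 GC box. The Cdkn2a stretch, printed as 216 bases, held 1 GC box and 1 E2F core, and its full 250 bases held 2 GC boxes. Among 32536 different RefSeq stretches of 250 bases upstream of a start, 42.2% held the Smad element, 33.0% the GC box and 3.84% the E2F core. These matches are a description of letters, and a Smad element is met in a large share of all starts.

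In parental cells given TGF-β, Cdkn2b and then Cdkn2a rose, and most of the other members fell. At 8 h, 1 member was higher and 7 were lower than in untreated cells, where 22.4% of all tested genes were higher and 32.1% were lower, and with median centring 5 members were called in place of 8. At 24 h, 2 members were higher and 6 were lower, against 33.4% and 37.1% of all tested genes. From 8 h to 24 h, 2 members rose and 5 fell, against 27.7% and 24.0%. Calls were made at an adjusted p under 0.05 with limma on log2(FPKM + 1), over all 11309 genes tested. All fold values below that are named log2 differences are on this scale.

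Cdkn2b, the gene for p15 that is the best known inhibitor target of TGF-β, rose the most. Its level was 27.7 and 28.5 FPKM in the untreated libraries, 47.0 and 47.5 FPKM after 8 h, and 64.4 and 67.0 FPKM after 24 h. The groups did not overlap, and the level climbed at each step. The log2 difference from untreated cells was 0.73 ± 0.0397 (SE) at 8 h (limma adjusted p = 3.55e-05) and 1.20 at 24 h (limma adjusted p = 9.88e-07), which was a 2.34-fold rise in FPKM, and the step from 8 h to 24 h also passed the test (0.47, limma adjusted p = 0.000116).

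Cdkn2a followed later. The row covers both of its products, p16 and the ARF protein that restrains Mdm2, which cannot be told apart here. It stood at 29.6 and 29.3 FPKM in untreated cells, 30.5 and 30.3 FPKM after 8 h, and 38.0 and 41.0 FPKM after 24 h. The 8 h difference of 0.04 did not pass (limma adjusted p = 0.461), and the 24 h difference of 0.41 did (limma adjusted p = 0.000195).

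The other INK4 genes went the other way. Cdkn2c, the gene for p18, was at 19.5 and 18.9 FPKM in untreated cells, 9.91 and 11.3 FPKM after 8 h, and 5.55 and 5.43 FPKM after 24 h. Cdkn2d, the gene for p19 INK4D, was at 10.8 and 9.49 FPKM in untreated cells, 6.48 and 6.06 FPKM after 8 h, and 4.47 and 4.21 FPKM after 24 h. Both genes fell at each step without overlap between the groups. The log2 difference at 24 h was -1.64 for Cdkn2c (limma adjusted p = 1.87e-06), which left 0.286 of its untreated level. It was -1.06 for Cdkn2d (limma adjusted p = 1.62e-05).

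The CIP/KIP genes did not rise at either time. Cdkn1a, a target of p53 as well as of SMAD proteins, was at 91.0 and 84.0 FPKM in untreated cells, 80.6 and 75.9 FPKM after 8 h, and 63.1 and 60.9 FPKM after 24 h. The 24 h libraries lay below all untreated libraries, with a log2 difference of -0.49 (limma adjusted p = 0.000146). The 8 h difference of -0.16 passed narrowly (limma adjusted p = 0.0388), and was lost without 1 of the untreated libraries (adjusted p = 0.195) or 1 of the 8 h libraries (adjusted p = 0.146), and with median centring (adjusted p = 0.181). Cdkn1b, the gene for p27, was at 22.9 and 23.3 FPKM in untreated cells, 18.7 and 21.2 FPKM after 8 h, and 16.5 and 16.7 FPKM after 24 h. Its 24 h difference was -0.45 (limma adjusted p = 0.000458), while the 8 h difference of -0.20 (limma adjusted p = 0.0271) was kept in 1 of 4 analyses that each left out 1 library, with adjusted p of 0.0865, 0.109 and 0.0988 without either untreated library or 1 of the 8 h libraries.

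Cdkn1c, the imprinted gene for p57, was below the test's minimum throughout. It was at 0.904 and 0.922 FPKM in untreated parental cells, 0.488 and 0.527 FPKM after 8 h, and 0.226 and 0.170 FPKM after 24 h. These groups did not overlap. In the shRNA table it was between 0.0217 and 0.159 FPKM in all libraries. The parental libraries, which carried more Cdkn1c, also carried more of 3 other marker sums. The adipocyte sum was 4.61 to 5.87 FPKM in parental libraries, nearly all from Fabp4 with Adipoq at 0 and Plin1 at no more than 0.0154 FPKM, and 0 to 0.203 FPKM in shRNA libraries. The muscle sum was 3.26 to 4.59 FPKM in parental libraries, mostly from Des with Myod1 at 0, and at most 0.134 FPKM in shRNA libraries, and the endothelial sum was 0.988 to 1.51 against 0.0132 to 0.605 FPKM. The part of these in the Cdkn1c level was not tested.

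Ccnd1, the gene for cyclin D1, was the most abundant member in every library. It stood at 254 and 257 FPKM in untreated cells, 150 and 165 FPKM after 8 h, and 125 and 117 FPKM after 24 h. The log2 difference was -0.69 at 8 h (limma adjusted p = 0.000117) and -1.07 at 24 h (limma adjusted p = 5.01e-06). The 3′ end of the gene overlaps Oraov1, so reads there may belong to either gene.

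Rb1 fell early and then held its level. It was at 6.20 and 6.26 FPKM in untreated cells, 4.39 and 4.54 FPKM after 8 h, and 4.32 and 4.25 FPKM after 24 h. The log2 difference was -0.40 at 8 h (limma adjusted p = 0.000832) and -0.45 at 24 h (limma adjusted p = 0.000227), and the step between these times did not pass (-0.05, limma adjusted p = 0.474). Other genes lie within or across the long Rb1 locus, and its value is uncertain to that extent.

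Myc, the transcription factor whose loss is part of the textbook arrest, changed little. It was at 29.2 and 29.03 FPKM in untreated cells, 23.4 and 26.2 FPKM after 8 h, and 28.6 and 26.1 FPKM after 24 h. The 8 h libraries lay below the untreated ones, with a log2 difference of -0.23 (limma adjusted p = 0.0247), but the call was lost without either untreated library (adjusted p = 0.102 and 0.0879) or without 1 of the 8 h libraries (adjusted p = 0.101), and with median centring (adjusted p = 0.0535). The 24 h difference of -0.09 did not pass (limma adjusted p = 0.263).

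**Figure D1:**
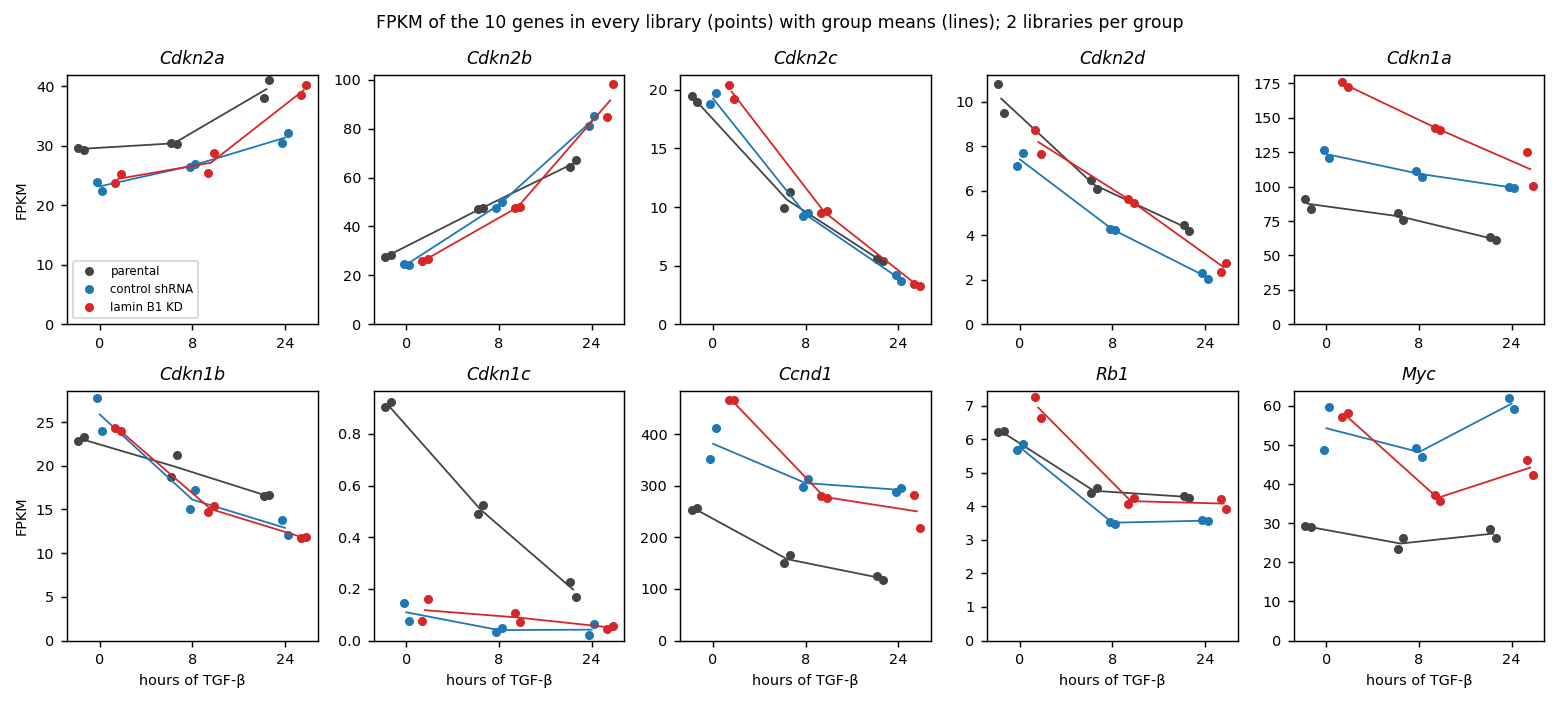
FPKM of each of the 10 genes (vertical axis, 1 panel a gene) in each library against hours of TGF-β (horizontal axis, evenly spaced), with points for libraries and lines through group means, for parental, control shRNA and lamin B1 knockdown cells. Cdkn2b climbs in all 3 sets of cells, from 27.7 to 67.0 FPKM in the parental libraries, while Cdkn2c and Cdkn2d fall in all 3, and the parental table was normalised apart from the shRNA table.

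In control shRNA cells given TGF-β, Cdkn2b and Cdkn2a rose and Cdkn2c, Cdkn2d, Cdkn1b and Rb1 fell. At 8 h, 2 members were higher and 5 lower, against 19.4% and 44.9% of all 11450 genes tested. At 24 h, 2 members were higher and 6 lower, against 25.5% and 45.1%. The median tested gene was itself lower by 0.14 on the log2 scale at 8 h and 0.13 at 24 h in these cells, and a small negative value is to be read against that shift.

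Cdkn2b was at 24.5 and 24.3 FPKM in untreated control shRNA cells, 47.7 and 50.03 FPKM after 8 h, and 80.9 and 85.3 FPKM after 24 h. The log2 difference was 0.97 at 8 h (limma adjusted p = 3.14e-06), and the rise was 3.40-fold at 24 h (1.73, limma adjusted p = 5.45e-08). Cdkn2a was at 23.9 and 22.4 FPKM in untreated cells, 26.4 and 26.9 FPKM after 8 h, and 30.5 and 32.2 FPKM after 24 h. Its 24 h difference was 0.42 (limma adjusted p = 0.000313). Its 8 h difference of 0.20 (limma adjusted p = 0.0241) was kept in 1 of 4 analyses that each left out 1 library, with adjusted p of 0.121 without untreated replicate 2, and 0.0702 and 0.0994 without either 8 h library.

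Cdkn2c had the deepest fall of all members, from 18.7 and 19.7 FPKM to 9.25 and 9.46 FPKM after 8 h and 4.20 and 3.73 FPKM after 24 h, a log2 difference of -2.03 (limma adjusted p = 1.26e-08). Cdkn2d fell from 7.13 and 7.70 FPKM to 2.31 and 2.03 FPKM after 24 h (-1.41, limma adjusted p = 6.6e-07). Cdkn1b fell from 27.8 and 24.0 FPKM to 13.7 and 12.1 FPKM after 24 h (-0.95, limma adjusted p = 1.11e-05). These 3 inhibitor genes and Rb1 were lower at both times with no overlap between groups. Rb1 went from 5.67 and 5.85 FPKM to 3.54 and 3.48 FPKM after 8 h and 3.59 and 3.55 FPKM after 24 h, with log2 differences of -0.58 and -0.56.

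Cdkn1a was at 126 and 121 FPKM in untreated control shRNA cells, 111 and 107 FPKM after 8 h, and 99.8 and 98.8 FPKM after 24 h, and the 24 h difference of -0.31 passed (limma adjusted p = 0.0084) but was lost in 2 of 8 other settings (adjusted p up to 0.098). Ccnd1 was at 352 and 411 FPKM in untreated cells, 297 and 313 FPKM after 8 h, and 288 and 297 FPKM after 24 h. Its differences of -0.32 (limma adjusted p = 0.0298) and -0.38 (limma adjusted p = 0.0121) rested on single libraries. Without untreated replicate 2 they were -0.20 and -0.27 (adjusted p = 0.188 and 0.0909). Leaving out either 8 h library gave an adjusted p of 0.129 or 0.0658, and leaving out 24 h replicate 1 gave 0.0585. Median centring gave 0.167 at 8 h and 0.0744 at 24 h. Myc was at 48.8 and 59.8 FPKM in untreated cells, 49.4 and 47.0 FPKM after 8 h, and 62.0 and 59.2 FPKM after 24 h. The treated and untreated Myc groups overlapped at both times, and neither difference passed (-0.16 with limma adjusted p = 0.128, and 0.16 with limma adjusted p = 0.118).

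In lamin B1 knockdown cells, Cdkn2b rose and Myc fell. At 8 h, 1 member was higher and 7 lower, against 23.0% and 44.8% of all tested genes. At 24 h, 2 were higher and 7 lower, against 28.6% and 43.3%, so that every tested member changed. The median tested gene was lower by 0.13 at 8 h and by 0.10 at 24 h on the log2 scale.

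Cdkn2b was at 25.8 and 26.8 FPKM in untreated knockdown cells, 47.6 and 48.1 FPKM after 8 h, and 84.6 and 98.4 FPKM after 24 h, a 3.48-fold rise (log2 difference 1.76, limma adjusted p = 4.25e-08). Cdkn2a was at 23.7 and 25.2 FPKM in untreated cells, 25.5 and 28.8 FPKM after 8 h, and 38.5 and 40.1 FPKM after 24 h. Its 24 h rise of 0.66 passed (limma adjusted p = 1.54e-05) and its 8 h difference of 0.14 did not (limma adjusted p = 0.0733).

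Myc was at 57.2 and 58.2 FPKM in untreated knockdown cells, 37.3 and 35.7 FPKM after 8 h, and 46.2 and 42.3 FPKM after 24 h. Every treated knockdown library lay below both untreated ones. The log2 difference was -0.65 at 8 h (limma adjusted p = 0.000151), which left 0.632 of the untreated level, and -0.38 at 24 h (limma adjusted p = 0.00336). Ccnd1 fell from 465 and 467 FPKM to 280 and 277 FPKM after 8 h and 282 and 219 FPKM after 24 h, with log2 differences of -0.74 (limma adjusted p = 0.000292) and -0.91 (limma adjusted p = 6.84e-05).

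Cdkn1a fell from 176 and 172 FPKM to 143 and 141 FPKM after 8 h and 125 and 100.3 FPKM after 24 h. Its log2 difference was -0.29 at 8 h (limma adjusted p = 0.0124) and -0.63 at 24 h (limma adjusted p = 0.000126), and the 8 h call was lost without untreated replicate 1 (adjusted p = 0.0595) or 8 h replicate 2 (adjusted p = 0.0534). Cdkn2c fell from 20.4 and 19.2 FPKM to 3.44 and 3.27 FPKM after 24 h, the lowest level it had in any group. Its log2 difference there was -2.26 (limma adjusted p = 6.6e-09). Cdkn2d, Cdkn1b and Rb1 were lower at both times, with 24 h differences of -1.36, -0.98 and -0.64.

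**Figure D2:**
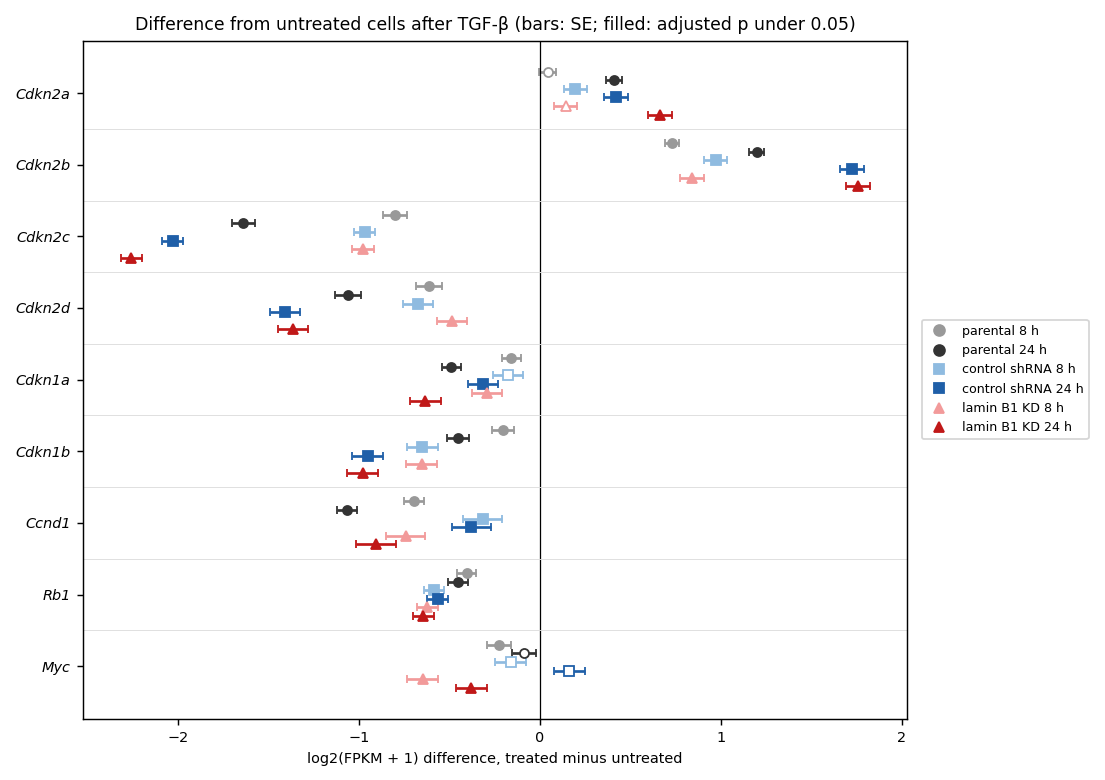
Log2 difference from untreated cells on the log2(FPKM + 1) scale (horizontal axis) with standard errors (bars) for each tested member (vertical axis), at 8 h and 24 h of TGF-β in parental, control shRNA and lamin B1 knockdown cells, where filled points passed the test. Cdkn2b and Cdkn2a lie to the right of 0 and Cdkn2c lies farthest to the left, down to -2.26 in knockdown cells at 24 h.

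The question of the knockdown was put to the members directly by comparing knockdown with control cells at the same time. In untreated cells, 2 members were higher in the knockdown and 0 lower, against 10.6% and 9.09% of all tested genes. After 8 h of TGF-β the knockdown had 3 members above control and 1 below, against 19.3% and 16.5%. After 24 h it had 1 above and 2 below, against 16.8% and 11.5%.

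Cdkn1a was higher in knockdown than in control cells before treatment. The levels were 176 and 172 FPKM against 126 and 121 FPKM, a 1.41-fold difference (log2 difference 0.49, limma adjusted p = 0.00544). At 8 h they were 143 and 141 FPKM against 111 and 107 FPKM (0.37, limma adjusted p = 0.00882), a call that was lost without control 8 h replicate 2 (adjusted p = 0.0591). At 24 h the value was 0.17 with 125 and 100.3 FPKM against 99.8 and 98.8 FPKM (limma adjusted p = 0.155), which did not pass.

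Myc was lower in knockdown cells after TGF-β. Untreated levels overlapped, with 57.2 and 58.2 FPKM in the knockdown and 48.8 and 59.8 FPKM in the control (0.09, limma adjusted p = 0.482). At 8 h they were 37.3 and 35.7 FPKM against 49.4 and 47.0 FPKM (-0.39, limma adjusted p = 0.00811), and at 24 h 46.2 and 42.3 FPKM against 62.0 and 59.2 FPKM (-0.45, limma adjusted p = 0.00649). The knockdown groups thus stood at 0.757 and 0.730 of control. The 8 h call was lost without control 8 h replicate 1 (adjusted p = 0.0563) or knockdown 8 h replicate 2 (adjusted p = 0.0543), and the 24 h call without control 24 h replicate 1 (adjusted p = 0.0537).

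For Cdkn2b no difference between knockdown and control passed the test at any time. The log2 difference of knockdown from control was 0.10 before treatment, -0.03 after 8 h and 0.13 after 24 h (limma adjusted p = 0.308, 0.763 and 0.155). Its neighbour Cdkn2a was 1.25-fold higher in knockdown cells at 24 h, at 38.5 and 40.1 FPKM against 30.5 and 32.2 FPKM (0.32, limma adjusted p = 0.00788), and this call was lost without control 24 h replicate 1 (adjusted p = 0.0663). Ccnd1 gave 0.29, -0.13 and -0.23 at the 3 times, none of which passed (limma adjusted p = 0.0926, 0.378 and 0.138).

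The remaining calls were small and were lost when single libraries were left out. Rb1 was higher in the knockdown in untreated cells, at 7.25 and 6.62 FPKM against 5.67 and 5.85 FPKM (0.23, limma adjusted p = 0.0243), and at 8 h, at 4.07 and 4.24 FPKM against 3.54 and 3.48 FPKM (0.19, limma adjusted p = 0.0286). The untreated Rb1 call was lost without either control library (adjusted p = 0.0666 and 0.0501) or knockdown replicate 1 (adjusted p = 0.173), and the 8 h call without any of its 4 libraries (adjusted p = 0.0761 to 0.145). Cdkn2d was higher at 8 h, at 5.64 and 5.45 FPKM against 4.30 and 4.23 FPKM (0.31, limma adjusted p = 0.0178), and lost its call without any of the 4 libraries (adjusted p = 0.0628 to 0.0903). Cdkn2c was lower at 24 h, at 3.44 and 3.27 FPKM against 4.20 and 3.73 FPKM (-0.19, limma adjusted p = 0.0426), which was lost without control replicate 1 (adjusted p = 0.267) or knockdown replicate 2 (adjusted p = 0.12), with the replicate block (adjusted p = 0.0541) and with only the groups compared (adjusted p = 0.203).

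**Figure D3:**
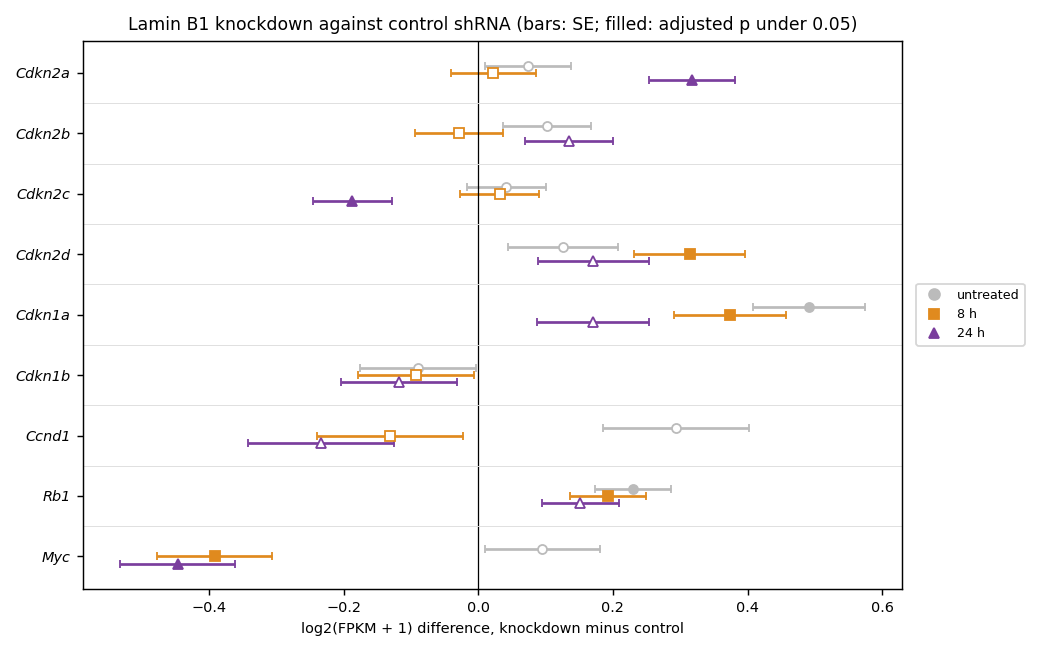
Log2 difference of lamin B1 knockdown from control shRNA cells on the log2(FPKM + 1) scale with standard errors (bars) for each tested member, in untreated cells and after 8 h and 24 h of TGF-β, where filled points passed the test. Cdkn1a starts at 0.49 and ends at 0.17, and Myc starts at 0.09 and ends at -0.45.

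Whether the TGF-β response itself differed was tested as the knockdown response minus the control response. After 8 h no member passed in either direction (0 of 9), against 2.45% higher and 1.61% lower among all tested genes. After 24 h only 1 member passed, in the lower direction, against 2.73% higher and 1.98% lower. The limma test called 465 genes at 8 h in all, with 2430 at an unadjusted p under 0.05. The member was Myc, whose response was lower in knockdown cells by 0.54 ± 0.121 (SE) on the log2 scale at 24 h (95% interval -0.82 to -0.27, limma adjusted p = 0.0429).

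The Myc result was near the threshold. At 8 h its difference of response was -0.49 (95% interval -0.76 to -0.21, limma adjusted p = 0.0617), which passed with quantile normalization (adjusted p = 0.0454) and without untreated control replicate 2 (adjusted p = 0.00529). The untreated control libraries differed from each other, at 48.8 and 59.8 FPKM, by more than any other Myc pair. The 24 h value was -0.55 without untreated knockdown replicate 1 and -0.53 without untreated knockdown replicate 2 (adjusted p = 0.13 and 0.157). It was -0.51 and -0.57 without either control 24 h library (adjusted p = 0.171 and 0.118), and -0.48 without knockdown 24 h replicate 2 (adjusted p = 0.0711), so the call was kept in 3 of 8 such analyses. It was also lost when replicate numbers were fitted as a block (adjusted p = 0.0645).

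For the other members no difference of response passed the test. Cdkn2b gave -0.13 at 8 h (95% interval -0.34 to 0.08, limma adjusted p = 0.468) and 0.03 at 24 h (-0.18 to 0.24, limma adjusted p = 0.858). Cdkn1a gave -0.12 at 8 h (limma adjusted p = 0.633) and -0.32 at 24 h (95% interval -0.59 to -0.05, limma adjusted p = 0.15), and Ccnd1 gave -0.42 (limma adjusted p = 0.161) and -0.53 (limma adjusted p = 0.0879). The 95% intervals were -0.77 to -0.08 and -0.88 to -0.18 for Ccnd1 and -0.38 to 0.15 for Cdkn1a at 8 h. The intervals at 24 h for Cdkn1a and Ccnd1 include the Myc value of -0.54, and that of Cdkn2b does not. At 24 h Cdkn2a gave 0.24 (95% interval 0.04 to 0.45, limma adjusted p = 0.151). Cdkn2c gave -0.23 there (95% interval -0.42 to -0.04, limma adjusted p = 0.145).

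The pathway downstream of these genes was described by lists. Of 13 E2F and S-phase targets, all 13 fell at both times in parental, control shRNA and knockdown cells. Between 32.1% and 45.1% of all tested genes fell in these comparisons. In parental cells at 24 h their median log2 difference was -1.25, against -0.02 over all tested genes. Tk1, a thymidine kinase of DNA precursor supply, went from 119 to 29.9 FPKM (-1.96, limma adjusted p = 1.56e-06), and Mcm5, a subunit of the replicative helicase, from 71.8 to 19.2 FPKM (-1.86). All 10 mitosis genes fell in parental cells at 24 h, against 37.1% of all tested genes. Mki67, the gene for the proliferation marker Ki-67, was at 17.1 against 58.1 FPKM (-1.70), Aurkb, a mitotic kinase, at -1.57 and Cdk1 at -1.54.

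Among the partners of the members, 7 of 11 G1 cyclins and CDKs fell and 3 rose (1 to 3 over the alternatives) in parental cells at 24 h, where 37.1% of all tested genes fell and 33.4% rose. Ccna2 (-1.53), Ccne2 (-1.05) and Cdk6 (-0.99), a partner of cyclin D, fell. Of 12 pocket proteins and E2F factors, 8 fell and 1 rose, and E2f2 went from 4.50 to 0.296 FPKM (-2.08), E2f8 fell by 1.91 and Rbl1, the gene for the pocket protein p107, fell by 1.09 on the log2 scale. In the list of genes that control the inhibitors, 8 of 12 fell and 3 rose, the latter below the share of all tested genes that rose. Skp2, the ubiquitin ligase subunit that marks p27 for destruction, fell from 11.3 to 5.46 FPKM (-0.93, limma adjusted p = 2.54e-05). Cdkn1b RNA fell over the same hours.

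Myc targets fell, and the genes of the Myc network moved both ways. All 11 tested Myc targets of 12 fell in parental cells at 24 h with a median of -0.42, where 37.1% of all tested genes fell. They were led by Ldha, the lactate dehydrogenase A gene, with a log2 difference of -1.53, Pa2g4 (-0.59) and the nucleolar protein gene Nop56 (-0.53). Of 10 tested network genes, 5 rose and 3 fell, with a median of 0.17, against 33.4% and 37.1% of all tested genes. Mxd4, whose product competes with Myc for Max, rose from 12.3 to 33.8 FPKM (1.39, limma adjusted p = 1.9e-06), and Mnt, another antagonist, rose by 0.46. Myc itself was not called at that time.

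Of 12 p53 pathway genes, 3 rose and 5 fell in parental cells at 24 h, shares near the 33.4% and 37.1% of all tested genes. Gadd45a, a growth arrest gene, went from 4.64 to 41.2 FPKM (2.91) while Gdf15 went from 7.33 to 1.68 FPKM (-1.64). Of 7 tested genes known to respond to TGF-β, 4 rose and 2 fell, and those that fell were the Id genes Id2 (-2.73) and Id1 (-2.54), which TGF-β represses in epithelial cells.

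S-phase genes were lower in the knockdown than in the control after TGF-β. In untreated cells, 0 of 13 S-phase genes were called by limma between knockdown and control, with 0 to 2 called lower and 0 to 1 called higher over the alternatives. At 8 h, 12 of 13 were lower in the knockdown, against 16.5% of all tested genes, with a median of -0.73, led by Mcm3 at 20.3 against 40.5 FPKM (-0.96, limma adjusted p = 0.000313), Mcm5 (-0.90) and Mcm2 (-0.85). At 24 h, 10 were lower (2 to 12 over the alternatives), against 11.5% of all tested genes, with a median of -0.45. The difference of response passed for 9 of these genes at 8 h and 2 at 24 h, against 1.61% and 1.98% of all tested genes that were lower, but those counts ranged from 0 to 12 and from 0 to 7 over the alternatives.

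Mitosis genes were lower in the knockdown at 24 h, with 10 of 10 called (4 to 10 over the alternatives), against 11.5% of all tested genes, including Mki67 at 4.26 against 8.69 FPKM (-0.89), Top2a (-0.78) and Bub1 (-0.76). At 8 h 7 of 10 were lower (2 to 10 over the alternatives), against 16.5% of all tested genes. In untreated cells 3 of 10 were lower (0 to 5 over the alternatives, with 9.09% of all tested genes lower), led by Plk1 (-0.51). The paper reports that knockdown and control cells grew at the same rate and that knockdown cells did not become senescent. The methods of those assays name no TGF-β. Of 11 tested Myc targets, 0 were called in untreated cells (0 to 5 lower over the alternatives), 8 were lower at 8 h (3 to 9) and 6 at 24 h (1 to 8), against 16.5% and 11.5% of all tested genes. Ncl, the nucleolin gene, gave -0.54 and -0.66 at these times. Of 10 tested genes of the Myc network, 1 was higher and 1 lower in untreated knockdown cells, against 10.6% and 9.09% of all tested genes. At 8 h 3 were higher (1 to 3 over the alternatives) and 1 lower, against 19.3% and 16.5%. At 24 h 2 were higher (0 to 3) and 1 lower, against 16.8% and 11.5%. Within this list the Myc partner Max was lower in the knockdown at all 3 times. It was at 16.8 against 25.4 FPKM in untreated cells (-0.57, limma adjusted p = 0.000178), -0.41 at 8 h and -0.53 at 24 h.

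The genes that were higher in the untreated knockdown included p53 pathway and cyclin genes beside Cdkn1a. Of 12 p53 pathway genes, 4 were higher (2 to 5 over the alternatives) and 0 lower, where 10.6% of all tested genes were higher and 9.09% lower, among them Btg2 (0.75, limma adjusted p = 0.0108), Mdm2, the ubiquitin ligase that restrains p53, at 145 against 87.4 FPKM (0.73, limma adjusted p = 0.00342), and Gdf15 (0.70). After 8 h of TGF-β 4 were above control (2 to 7 over the alternatives) and 1 below, against 19.3% and 16.5% of all tested genes. After 24 h 2 were above (1 to 6) and 0 below, against 16.8% and 11.5%, so the count above was near the share of all tested genes. Of 11 G1 cyclins and CDKs, 3 were higher and 3 lower in untreated knockdown cells, and the lower calls ranged from 0 to 3 over the alternatives. Ccnd2, a second D-type cyclin, was at 50.1 against 28.4 FPKM (0.80, limma adjusted p = 5.18e-05), Ccnd3 gave 0.53 and Ccne1 gave 0.51. The lower ones, named here after their values were seen, were Cdk4 (-0.34), Ccna2 (-0.31) and Ccnh (-0.20).

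**Figure D4:**
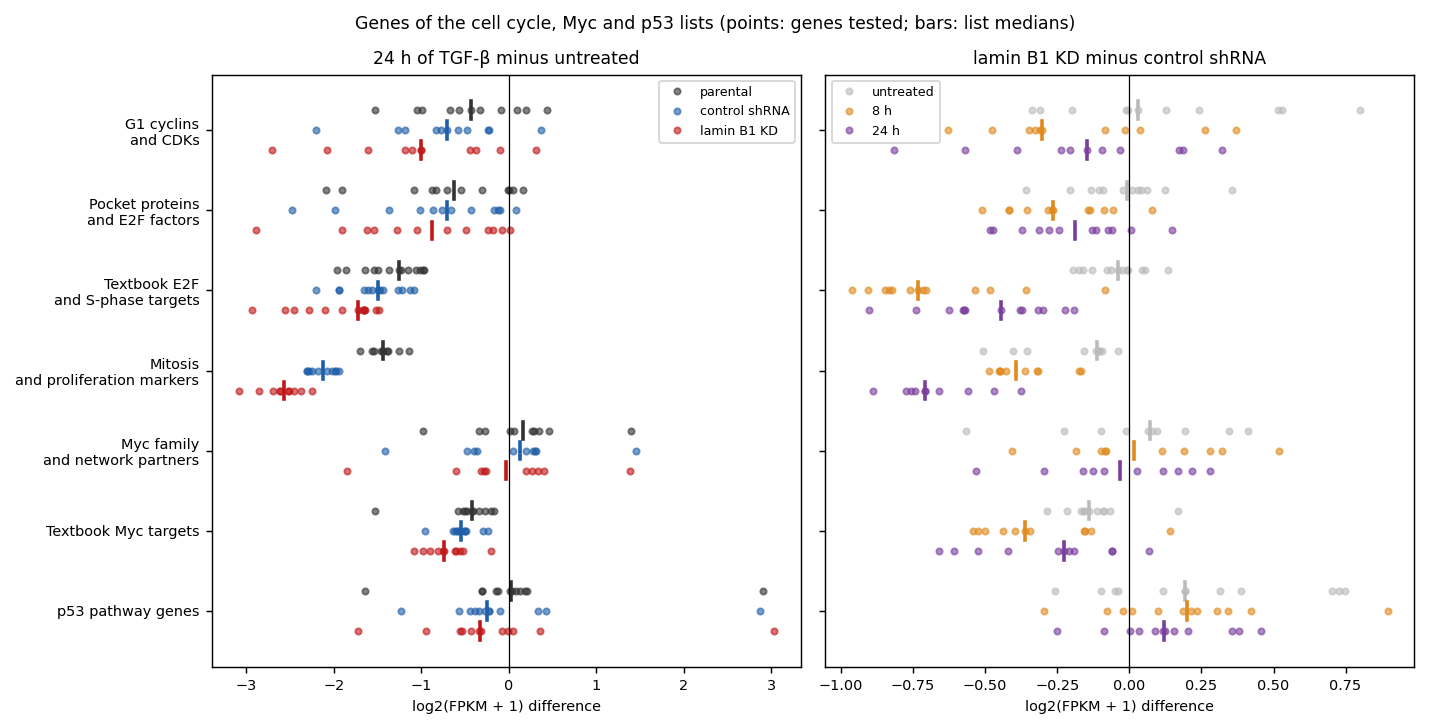
Log2 differences on the log2(FPKM + 1) scale for the genes of each list (points) with list medians (bars), in the comparisons named on the panels. The S-phase and mitosis lists lie below 0 after TGF-β, with a median of -1.25 for S-phase genes in parental cells at 24 h, and below 0 between knockdown and control cells at 8 h and 24 h.

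Lamin B1 peaks were then sought from 2500 bp upstream of each gene to its 3′ end in mm9. The deposited lists held 4645 lamin B1 peaks before treatment, 10484 after 8 h and 7083 after 24 h, so more genes meet a peak at 8 h by the length of the list alone. In untreated cells 5 of 10 members had a lamin B1 peak, against 19.3% of all protein-coding genes and 34.3% of those with at least 1 FPKM. At 8 h, 9 had one, against 37.6% and 57.5%, and at 24 h 7 did, against 28.7% and 45.0%. With lists of equal length the 8 h count was 6 and the 24 h count was 7. Cdkn2d alone had neither a lamin B1 nor an ATAC peak within 10 kb at any time. Since the ChIP-seq covered a euchromatin fraction, a locus without a listed peak here and below is not shown to lack lamin B1.

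Cdkn2b was the member whose lamin B1 peak was present before TGF-β and absent from its start afterwards. The untreated peak at chr4:88956182-88957234 lay over the transcription start, with a MACS score of 88.33, and covered the sequence with the Smad element printed above. At 8 h the single peak lay in an exon at chr4:88952711-88953471, 3470 bp from the start, with a score of 52.87 that only 6.59% of that list lay below. At 24 h there was none. ATAC peaks stood at the Cdkn2b start with scores of 114.27 before treatment, 56.04 after 8 h and 438.54 after 24 h.

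Cdkn2a, whose first start lies 16384 bp from that of Cdkn2b, showed the other order. It had no lamin B1 peak in untreated cells. Peaks over the start of its longer transcripts lay at chr4:88939993-88941070 at 8 h (score 114.65) and at chr4:88939808-88941470 at 24 h (score 111.12). An ATAC peak over this start was listed at 24 h only (score 352.27), at chr4:88940049-88941844. Cdkn2a has another start at chr4:88928096, and the 250 bases upstream of it met no lamin B1 or ATAC peak at any time. The peaks thus do not speak for all products of the gene. An ATAC peak between both genes, about 8 kb upstream of Cdkn2a, was listed at all 3 times (scores 75.85, 82.06 and 279.37). The 24 h scores are not set against those of other times, since the 24 h ATAC list held 33811 peaks and the others 9782 and 10340.

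At the other 4 starts with early lamin B1 peaks, peaks were listed at all times. Cdkn1a had lamin B1 peaks with scores of 118.01, 131.83 and 101.32, the 8 h one over the second start printed above and the others in the intron that follows it. Cdkn1b had peaks over or just beside its start with scores of 98.78, 163.0 and 77.23, Cdkn2c with 110.51, 147.45 and 121.82, and Myc with 89.59 in untreated cells, 86.17 and 94.91 for 2 peaks at 8 h, and 86.44 at 24 h. The Myc peaks lay over a transcription start of the gene.

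Cdkn1c, Ccnd1 and Rb1 had lamin B1 peaks in this window after TGF-β and none before it, though for Ccnd1 this rests on the edge of the window, since an untreated peak (score 62.7) lay 2796 bp upstream of its start. Cdkn1c, the least expressed member, had the highest scoring peak of any member at 8 h, at chr7:150644743-150647219 with a score of 267.72, above 98.0% of that list. It kept a peak at 24 h (186.59, above 92.1%) and had no ATAC peak. Ccnd1 had 2 peaks in the window at 8 h (60.23 and 72.54) and none at the other times, and Rb1 had peaks at 8 h (51.86) and 24 h (87.25). The Rb1 and Ccnd1 peaks at 8 h, and the Cdkn2b one, were not in a list cut to the length of the untreated list.

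ATAC peaks met 5 of 10 members before treatment, 4 after 8 h and 8 after 24 h, against 35.8%, 31.8% and 58.0% of protein-coding genes and 66.3%, 57.3% and 94.1% of those with at least 1 FPKM. The members were thus not richer in ATAC peaks than other expressed genes by these counts. Cdkn1b, Cdkn2b, Cdkn2c and Rb1 had one at all times, Cdkn1a in untreated cells and at 24 h, and Cdkn2a, Myc and Ccnd1 at 24 h only. Myc, at 23.4 to 29.2 FPKM in the parental libraries, had no listed ATAC peak until the 5453 bp peak at 24 h, and absence from a list of this length does not show closed chromatin.

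**Figure D5:**
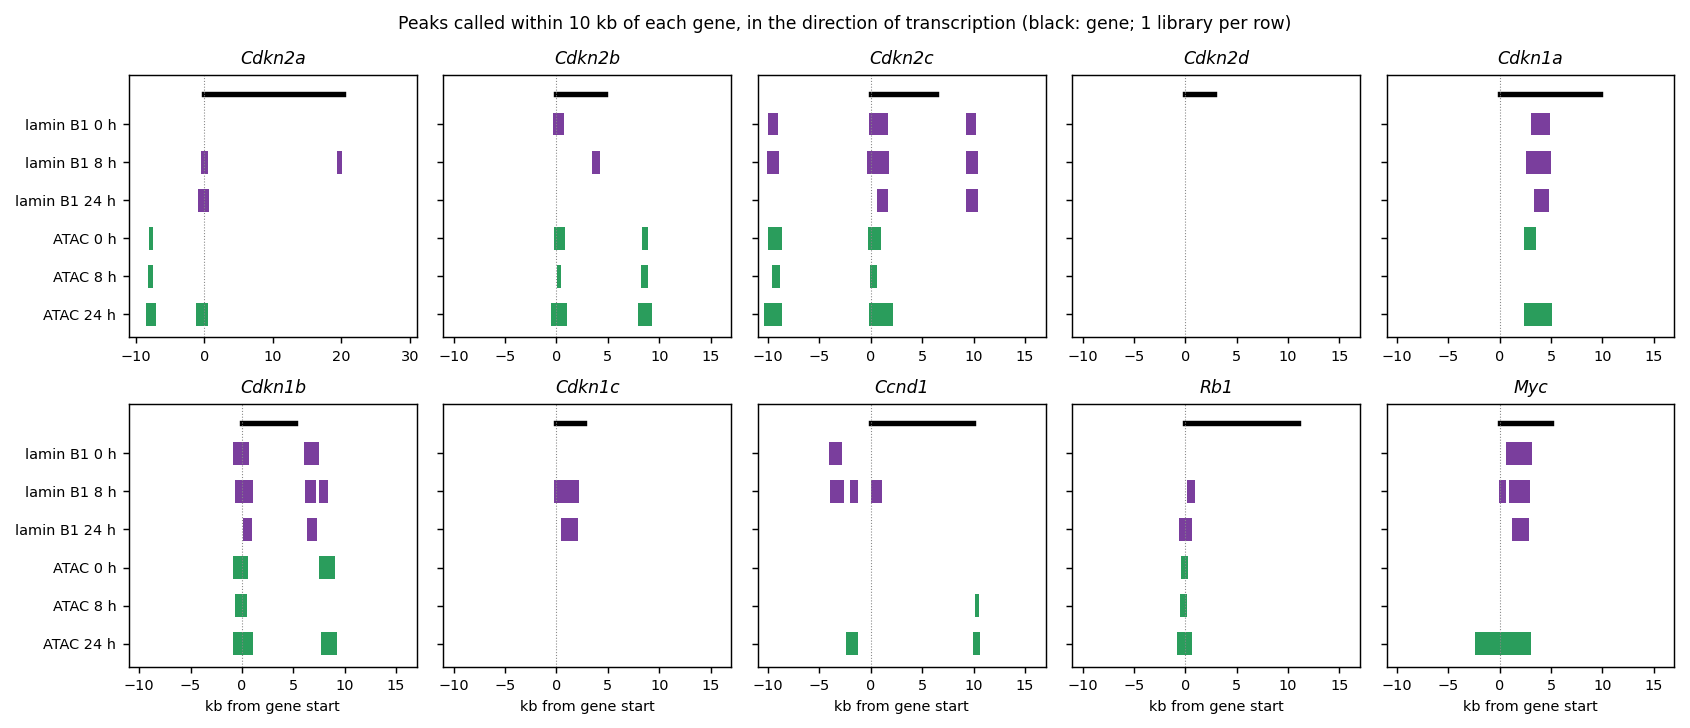
Lamin B1 and ATAC peaks (bars, by hours of TGF-β) at each member locus against distance from the gene start in kb (horizontal axis), with the gene drawn as a bar in its direction of transcription. The Rb1 gene is drawn only to 11 kb and its ATAC peaks 72 to 88 kb into the gene are not shown. The lamin B1 peak at the Cdkn2b start is seen in untreated cells only, and Cdkn2d has none.

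The genes most like Myc and Cdkn1a across the 12 shRNA libraries were named from 8069 candidates by Pearson's r, as a description of libraries that share groups and scaling. Those closest to Myc were 2410002F23Rik (r = 0.956), Gm9833 (0.954), Mmd (0.905), Prkci (0.904) and Tmem201 (0.904). In the 6 parental libraries their r with Myc was 0.596, 0.0991, 0.421, 0.682 and 0.973, so the likeness of most was weaker there. Those closest to Cdkn1a were Raph1 (r = 0.971), Ifi27l2b (0.965), Adam9 (0.955), Zcrb1 (0.947) and Sub1 (0.946), with r of 0.887 to 0.994 in the parental libraries.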

How the data were processed

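RNA-seq, lamin B1 ChIP-seq and ATAC-seq of NMuMG cells were used as deposited, and Hi-C was not analysed here. The authors mapped reads to mm9 (Bowtie and TopHat, named in the submitters' processing notes) and gave expression as FPKM values from Cufflinks, in tables without a header, so columns were read in the order of the deposited description. The parental columns carry no replicate number. The labels call the 2 RNA libraries of a group biological replicates. The number of reads behind the FPKM values is unknown. The steps of the lowest values put relative depth between 92.7% and 116% of the first parental library, and between 79.0% and 113% of the first shRNA library. Peaks were deposited with a MACS score, whose exact meaning is not given in the sources used here. Each ChIP library mixed 2 parallel precipitations.

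Genes that reached 1 FPKM in 2 or more libraries (11309 parental, 11450 shRNA) were fitted on log2(FPKM + 1) with limma 3.58.1 in R 4.3.3, all libraries of a table together, with a mean trend and Benjamini-Hochberg adjustment over all tested genes, in 12 comparisons. The code was tested on simulated data. Intervals are 95% confidence intervals of the fit.

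A member had a peak when at least 1 bp of a peak lay from 2500 bp upstream of the gene to its 3′ end, with 22372 protein-coding genes of a mouse annotation in mm9 coordinates as background. RefSeq promoter entries, made on a later build, existed for 6 of 10 members (9 entries) and were placed in mm9 by exact match of 250 bases. The Cdkn2a stretch left out 34 bases that lie inside a longer transcript.

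The members and lists were chosen with earlier results of these data known. Beside members, at most 3 genes with the largest called differences per list and comparison were named, and the 5 genes most like Myc and Cdkn1a among those with a mean of at least 5 FPKM. Some list genes are not reported here. Alternatives were a pseudocount of 0.1, no filter, a filter of 5 FPKM, quantile normalization, median centring, no mean trend, only the groups compared, a replicate block, each library left out, other peak windows and overlaps, peaks at or above the median score, and lists of equal length. Same-numbered shRNA libraries were checked for pairing over 15 pairs of groups.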

Additional observations from a re-analysis of the deposited data

Results flagged for a closer look

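These are values of the knockdown response minus the control response to TGF-β on the log2(FPKM + 1) scale, each named because limma's test of that difference passed, and no explanation was tested. Among the 10 cytostatic genes, Myc gave -0.54 at 24 h. Among cyclins, Ccne1 gave -1.14 at 8 h and -0.90 at 24 h, and Ccnd2 gave -0.54 at 8 h and -0.61 at 24 h. E2f1 gave -0.62 at 8 h and E2f7 gave -0.60 at 24 h. Of the S-phase genes, Mcm3 gave -0.88, Cdc6 -0.81 and Mcm2 -0.81 at 8 h, and Tk1 gave -0.73 and Mcm5 -0.61 at 24 h. Of the mitosis genes, Mki67 gave -0.78, Bub1 -0.72 and Top2a -0.67 at 24 h. Mdm2, of the p53 pathway, gave -0.72 at 24 h. Foxo1, a transcription factor that acts on CDK inhibitor genes, gave 0.41 at 8 h. The counts behind these names ranged over the alternatives from 0 to 6 for the mitosis list at 24 h, 0 to 4 for the p53 list at 24 h, 0 to 5 for the pocket protein and E2F list at each time, 0 to 12 and 0 to 7 for the S-phase list at 8 h and 24 h, and 1 to 4 and 2 to 5 for the cyclin list.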

How the results depend on the processing

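Of 761 recomputed values of members called in the report, 690 kept their call, 71 lost it and 0 changed direction. Of 300 recomputed values that were not called, 19 gained a call and 5 changed sign. For knockdown against control and for the difference of response, the 300 values held only Cdkn1a, Cdkn2b, Myc and Ccnd1. Uncalled values of the other members there were not counted. Median centring moved the members called in parental cells at 8 h from 8 to 5. The single member called in the 24 h difference of response, Myc, went to 0 without the filter, with median centring, without the trend, with only the groups compared and with the replicate block, and quantile normalization called 1 member at 8 h in place of 0 and turned the Cdkn2b difference of response at 24 h from 0.032 to -0.047. With only the groups compared, genes called between knockdown and control went from 2254 to 732 in untreated cells (members 2 to 1) and from 3241 to 710 at 24 h (members 3 to 1), and genes called in the difference of response from 465 to 714 at 8 h and from 540 to 88 at 24 h, where fewer libraries entered each fit. ATAC peaks at or above the median score met 3 members in untreated cells in place of 5. Quantile normalization moved the share of called genes that were higher from 30.2% to 46.0% (control shRNA, 8 h), 36.1% to 49.99% (control shRNA, 24 h), 33.9% to 46.0% (knockdown, 8 h) and 39.8% to 50.1% (knockdown, 24 h).

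The replicate block moved the genes called in the 8 h difference of response from 465 to 284, and 2 of 42 member calls were lost in that fit (Cdkn2c between knockdown and control at 24 h, and Myc in the 24 h difference of response). Of 15 pairs of groups, the deviations of same-numbered libraries correlated above 0.1 in 2 (range -0.135 to 0.368). These were control with knockdown at 24 h (0.368) and untreated knockdown with knockdown at 24 h (0.184). The main fit did not pair same-numbered libraries. The parental columns could not be paired.

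With 1 library left out at a time, where a lone library was assumed to vary like the other groups, genes called between knockdown and control were 689 to 2506 in untreated cells, 2330 to 2440 at 8 h (4104 with all libraries) and 1205 to 4487 at 24 h, with 1 to 2, 1 to 2 and 0 to 5 members. The fewest were called without knockdown untreated replicate 1, control 8 h replicate 2 and control 24 h replicate 1. Genes called in the difference of response were 29 (without control 8 h replicate 2) to 1485 (without control untreated replicate 2) at 8 h and 87 (without control 24 h replicate 1) to 2709 (without knockdown 24 h replicate 1) at 24 h, with 0 to 1 and 0 to 3 members. Members called after TGF-β were 5 to 7 (8 h) and 8 (24 h) in parental cells, 6 to 8 from 8 h to 24 h, 5 to 8 and 7 to 8 in control shRNA cells, and 7 to 9 and 9 in knockdown cells. Among the small uncalled differences that were counted, the sign changed for Cdkn2b in the difference of response at 24 h (-0.076 to 0.14) and between knockdown and control at 8 h (-0.063 to 0.0046), and for Myc between untreated knockdown and control (-0.050 to 0.24). The cause was not tested.

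With 2 libraries a group, and 1 library a time for peaks, small differences were not detectable, and read depth is unknown.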
